A study of Mus musculus with 3 samples.

Results

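The 10 genes described here encode transcription factors of the Fos, Jun, ATF and Egr families. They were taken by symbol, and all 10 were found among the 39179 genes of the deposited table: Fos, Fosb, Fosl1, Fosl2, Jun, Junb, Jund, Atf3, Egr1 and Egr2. All 10 had a mean of at least 10 over the 3 libraries, as did 22235 genes in all.

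The cells were mouse embryonic stem cells of 1 line, which carried an eGFP reporter for contactin 2 (Cntn2, a surface protein used to mark the Purkinje cells of the heart) and, from a lentivirus, mCherry under the αMHC promoter (Myh6, a myosin heavy chain of cardiomyocytes). All were differentiated and received sodium nitroprusside, which releases nitric oxide, at day 4. At day 25 they were sorted into cells without reporter signal (NEG), mCherry-positive cells (MHC) and eGFP-positive cells with dim mCherry (GFP), with 1 library each. No population was untreated, and no unsorted cells were analysed here, so the parts that sorting, dissociation and treatment have in the levels cannot be told apart from the populations' own levels.

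AP-1 is a dimer that binds DNA through a basic region and a leucine zipper. Fos proteins dimerise only with a partner such as a Jun protein, while Jun proteins can also pair with each other and with ATF proteins. The Egr proteins bind GC-rich sites through zinc fingers. Many of these genes are immediate early genes: growth factors, stress and the dissociation of tissue induce them within minutes, without new protein synthesis, through serum response factor, its Elk partners and CREB acting on their promoters. The mRNAs are short-lived.

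Values are read counts per gene divided by 1 size factor per library. Whole reads recovered from them numbered 47289405 in NEG, 52826956 in MHC and 52109065 in GFP. The genes behind the reporters were each highest in the population sorted for them. Myh6 in GFP, sorted with dim mCherry, was within 2-fold of NEG (log2 ratio 0.29). Epicardial and mesothelial markers, which line the heart and body cavities, were highest in GFP for 8 of 8 genes, with a summed value of 5566 in NEG, 5694 in MHC and 158561 in GFP. Cardiomyocyte markers were highest in MHC for 8 of 8, with sums of 5430 in NEG, 116366 in MHC and 8947 in GFP. Markers of blood cells, highest in GFP for 5 of 6, summed to 1854 in NEG, 2561 in MHC and 10438 in GFP, although the leukocyte gene Ptprc was at 3.39, 4.05 and 10.1. Epithelial markers, highest in GFP for 6 of 6, summed to 2623, 1415 and 22001. Fibroblast and matrix markers summed to 5268291, 5248847 and 1350522, and smooth muscle markers to 62221, 71699 and 46768. Endothelial markers summed to 1690, 2700 and 654, and neuronal markers to 523, 270 and 243. Single endothelial markers were highest in NEG for 1 of 6, in MHC for 3 and in GFP for 2. Neuronal markers were highest in MHC for 4 of 6 and in NEG for 2, although their sum was highest in NEG. A mean of at least 10 was reached by 4 endothelial and 5 neuronal markers. Of the 6 smooth muscle markers, 5 were at least 2-fold lower and 1 higher in GFP than in MHC (median log2 ratio −2.78). Against NEG, 4 were lower and 1 higher in GFP (−3.59). None of the markers of these cell types was at 0 in any library. The part of this cell makeup in the differences below was not tested, and fewer cells of a type and less RNA per cell cannot be told apart in such bulk libraries.

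The promoters of 4 members are shown because these genes had different patterns over the populations: Fos and Fosl2 were highest in GFP, Fosb was highest in MHC, and Junb varied little. Each sequence is the 250 bases before the RefSeq start site (GRCm38.p6), 5′ to 3′ in the direction of the gene, with capitals for the motifs searched on both strands. The motifs were the cAMP response element (CRE) TGACGTCA, its core TGACG (contained in it), the AP-1 site TGAGTCA, an AP-1 variant TGACATCA, the EGR site GCGNGGGCG, the TATA box TATAAA and, by name, the CArG box that serum response factor binds.
Fos, chr12:85473640-85473889, plus strand: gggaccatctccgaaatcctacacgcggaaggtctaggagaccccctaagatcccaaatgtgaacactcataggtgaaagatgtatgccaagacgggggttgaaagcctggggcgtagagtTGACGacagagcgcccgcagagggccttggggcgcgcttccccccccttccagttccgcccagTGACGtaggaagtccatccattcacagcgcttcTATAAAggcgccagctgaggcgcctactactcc
Fosb, chr7:19310046-19310295, minus strand: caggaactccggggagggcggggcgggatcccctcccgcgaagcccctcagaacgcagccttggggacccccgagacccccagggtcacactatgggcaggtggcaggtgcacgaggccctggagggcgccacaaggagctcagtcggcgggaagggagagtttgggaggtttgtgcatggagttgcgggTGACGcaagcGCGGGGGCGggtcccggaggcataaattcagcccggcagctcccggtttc
Fosl2, chr5:32136222-32136471, plus strand: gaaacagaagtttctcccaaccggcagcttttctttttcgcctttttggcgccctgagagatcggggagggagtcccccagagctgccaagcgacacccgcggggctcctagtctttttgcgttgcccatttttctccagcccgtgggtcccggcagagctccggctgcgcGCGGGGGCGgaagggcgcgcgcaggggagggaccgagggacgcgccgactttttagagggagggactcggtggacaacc
Junb, chr8:84978749-84978998, minus strand: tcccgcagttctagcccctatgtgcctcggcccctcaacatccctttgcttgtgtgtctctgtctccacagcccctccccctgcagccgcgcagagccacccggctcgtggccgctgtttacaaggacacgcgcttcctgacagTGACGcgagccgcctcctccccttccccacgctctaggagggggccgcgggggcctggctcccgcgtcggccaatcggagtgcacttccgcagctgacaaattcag

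From RefSeq's promoter table, 8 of the 10 members were searched, with 12 windows of 250 bases, 5 of them of Egr2. Fosl1 had no entry. Windows on the chromosome of Egr1 were left out for the members but kept for all genes, so Egr1 was not searched. A gene counts as holding a motif where any of its windows does, for the members and for all 27025 genes of that table, and more windows give a gene more chances. The CRE core was held by 5 of the 8 (Fos, Fosb, Junb, Atf3 and Egr2), and by 19.8% of all genes. The Fos window held it at 129 to 125 and at 66 to 62 bases before the start. The EGR site was in the windows of Fosb and Fosl2, and in those of 5.33% of all genes. The Fosb and Fosl2 windows were 68.8% and 64.4% G and C, against a median of 52.4% over all windows. The shares over all genes were not matched for this. The whole CRE and the AP-1 site were in none of the 8, against 1.77% and 5.16% of all genes, and the AP-1 variant was in the Jun window, 45 to 38 bases before the start, against 3.41% of all genes. The TATA box was in the Fos window and in those of 14.3% of all genes. The CArG box was in windows of Egr2 and in those of 1.62% of all genes. It is shown with a CRE core on the other strand just downstream, in the 30 bases that lie 79 to 50 bases before one of the Egr2 starts. The last 30 bases before the Atf3 start, with a CRE core on the other strand near their end, follow it.
Egr2, chr10:67537790-67537819, plus strand: cctcagtCCATATATGGgcagcgaCGTCAc
Atf3, chr1:191183334-191183363, minus strand: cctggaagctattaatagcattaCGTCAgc
These matches describe the letters of these windows. Elements farther upstream lie outside them.

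Of the 10 members, 7 differed by less than 2-fold between their highest and lowest library (70.0%), compared with 60.3% of the 22235 measured genes. The other 3 were Fosb, Fosl1 and Fosl2, all of the Fos family. The median ratio of the highest to the lowest library was 1.66 over the members and 1.73 over the measured genes. Together the members took 0.337% of the reads of NEG, 0.380% of those of MHC and 0.388% of those of GFP. Their normalised values summed to 179916 in NEG, 203393 in MHC and 184996 in GFP. Which of MHC and GFP came first thus depended on the scaling.

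**Figure D1:**
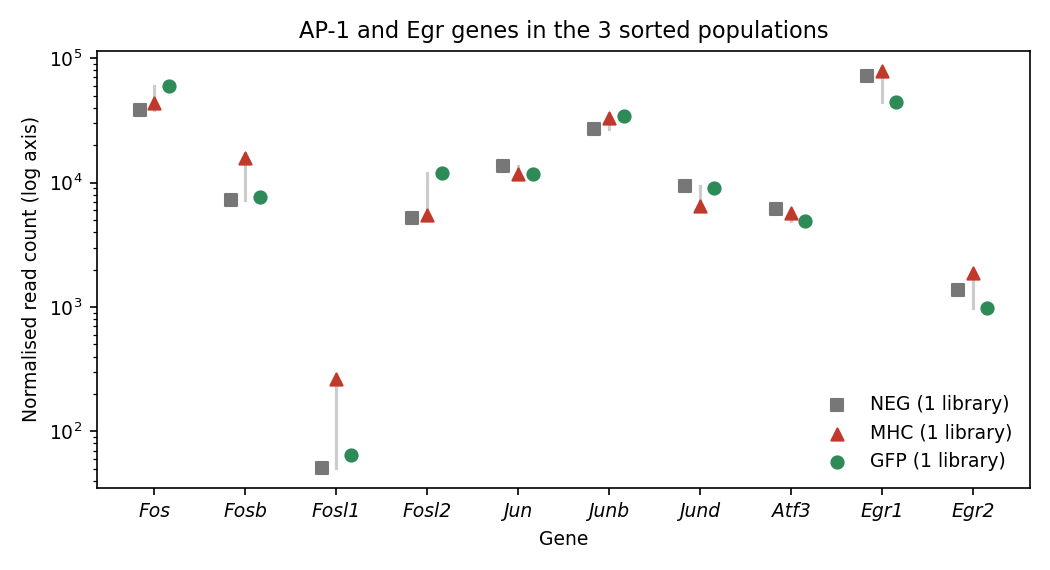
Normalised read count of each member (log axis) in the NEG, MHC and GFP libraries, 1 point per library, with a grey line from the lowest to the highest. Fos is highest in GFP and Egr1 lowest there, Fosl1 is at 265 or below in each, and Fosl2 and Fosb stand out in GFP and in MHC.

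Fos (ENSMUSG00000021250, chr12:85473890-85477273, mm10), the founding member of its family, had a value of 38523 in NEG, 43455 in MHC and 59671 in GFP. It was highest in GFP, 1.37-fold (95% counting interval 1.36 to 1.39) above MHC and 1.55-fold (1.53 to 1.57) above NEG. The intervals here and below are exact Clopper-Pearson intervals from recovered reads. They cover counting error only, and with 1 library per population no difference between populations can be tested.

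Fosl2 (ENSMUSG00000029135, chr5:32136472-32157831), which encodes Fra-2, a Fos protein without the strong activation domain of Fos itself, had a value of 5153 in NEG, 5498 in MHC and 11922 in GFP. GFP stood above the other libraries, which lay close together. Its level was 2.17-fold (2.10 to 2.24) higher in GFP than in MHC and 2.31-fold (2.24 to 2.39) higher than in NEG. Among the 10 members it was the 1 gene at least 2-fold higher in GFP in these comparisons, while 15.6% of the genes tested were that much higher in GFP than in MHC and 14.1% than in NEG. A gene counted as higher or lower at 2-fold or more on the log2(value + 1) scale with a value of at least 20 in the higher library. This rule goes by size alone and is no test.

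Fosb (ENSMUSG00000003545, chr7:19302721-19310045), whose splice form ΔFosB accumulates under repeated stimulation in neurons, had a value of 7234 in NEG, 15730 in MHC and 7642 in GFP. MHC stood apart, and GFP and NEG were 1.06-fold (1.02 to 1.09) from each other. Fosb in MHC was 2.06-fold (2.004 to 2.11) above GFP and 2.17-fold (2.11 to 2.24) above NEG. The cardiomyocyte markers were highest in the same library, and their part in the level was not tested. The table has 1 value per gene, so the splice forms are not separated. With libraries scaled to their totals, its log2 difference between GFP and MHC was −0.87, inside 2-fold, and not −1.04.

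Fosl1 (ENSMUSG00000024912, chr19:5447703-5455945), which encodes Fra-1, was the lowest member, also per length, with a value of 50.8 in NEG, 265 in MHC and 64.9 in GFP. It had 45, 262 and 71 reads in NEG, MHC and GFP. MHC, with the highest cardiomyocyte markers, was again the highest library, 4.09-fold (3.13 to 5.39) above GFP and 5.22-fold (3.79 to 7.33) above NEG. The counting interval of GFP over NEG, 0.867 to 1.90, included 1. Fosb and Fosl1 were thus the 2 of 10 members at least 2-fold lower in GFP than in MHC, against 16.4% of all genes tested. They were also the 2 of 10 higher in MHC than in NEG, against 5.35%. None of the 10 was 2-fold lower in GFP than in NEG or in MHC than in NEG, against 15.0% and 5.21%. MHC enters both comparisons, so these counts share a library.

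**Figure D2:**
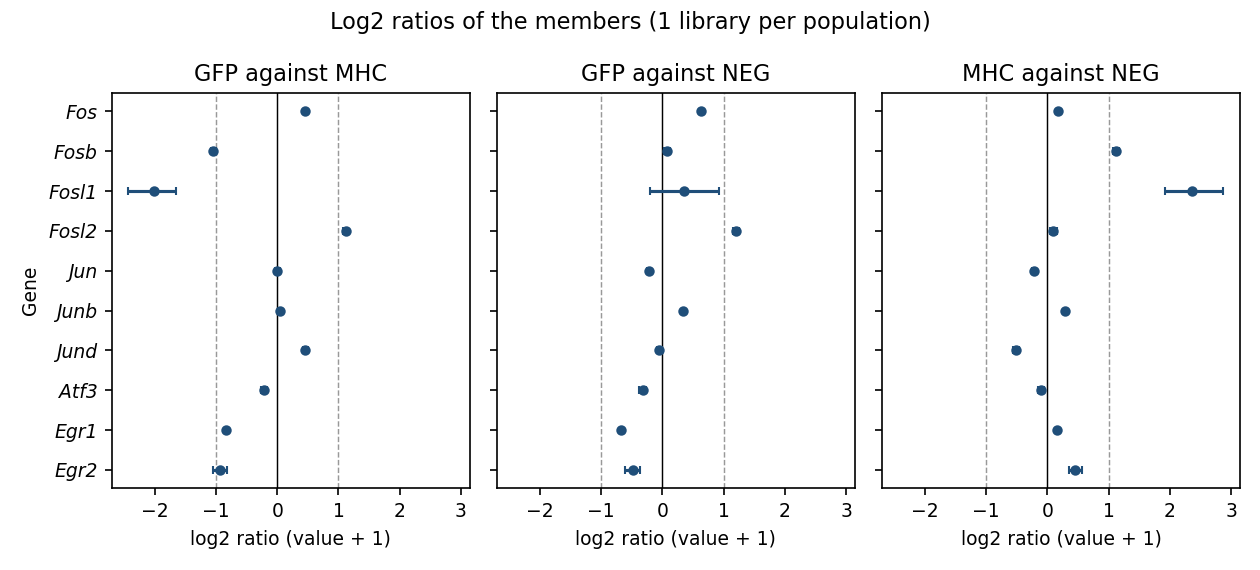
Log2 ratio of each member on the log2(value + 1) scale in the 3 comparisons, with 95% counting intervals (mostly narrower than the points) and dashed lines at 2-fold. The Fos family genes other than Fos cross the dashed lines, and the Egr genes lie left of 0 in both comparisons of GFP.

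The Jun genes, whose proteins form the other arm of the dimer, differed little between the populations. Jun (ENSMUSG00000052684, chr4:95049034-95052222) had a value of 13561 in NEG, 11641 in MHC and 11677 in GFP. GFP and MHC were 1.003-fold apart (interval 0.978 to 1.03), and NEG was 1.16-fold (1.14 to 1.20) above MHC. Junb (ENSMUSG00000052837, chr8:84976909-84978748), in many settings a weaker activator than Jun, had a value of 27186 in NEG, 33237 in MHC and 34420 in GFP. NEG was the lowest library, 1.27-fold (1.25 to 1.29) below GFP. Jund (ENSMUSG00000071076, chr8:70697739-70700616), the Jun gene usually expressed steadily and not induced by growth signals, had a value of 9311 in NEG, 6540 in MHC and 8993 in GFP. It was lowest in MHC, 1.42-fold (1.38 to 1.47) below NEG and 1.38-fold (1.33 to 1.42) below GFP.

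Jun and Jund are uncertain, because each overlaps another gene of the table. Of 693 genes with at least 300 reads in GFP that lie inside a gene on the opposite strand, 100% had a host with at least as many reads, so reads were treated as counted on both strands and into each gene they overlap. The antisense gene BC042782 shares 689 bases with Jun and had a mean 25.3% that of Jun. The model Gm11175 lies on the opposite strand inside Jund, shares 543 bases and had a mean 38.2% that of Jund. MHC was the lowest library for both members and both partners: BC042782 had a value of 3451 in NEG, 2912 in MHC and 2958 in GFP, and Gm11175 3457, 2534 and 3506. No other member overlaps a gene of the table.

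Atf3 (ENSMUSG00000026628, chr1:191170296-191183340), a stress-induced partner of Jun proteins that often represses, had a value of 6132 in NEG, 5708 in MHC and 4919 in GFP. It was highest in NEG, by 1.25-fold (1.20 to 1.29) over GFP and 1.07-fold (1.03 to 1.12) over MHC.

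The Egr genes were lowest in GFP. Egr1 (ENSMUSG00000038418, chr18:34859823-34864984), the most widely induced of its family, had a value of 71405 in NEG, 79457 in MHC and 44711 in GFP. Its level in GFP was 1.78-fold (1.76 to 1.80) below that in MHC and 1.60-fold (1.58 to 1.62) below that in NEG. Egr2 (ENSMUSG00000037868, chr10:67535475-67542188), also known as Krox20 and as a regulator of Schwann cell myelination, had a value of 1360 in NEG, 1861 in MHC and 974 in GFP. Its level in GFP was 1.91-fold (1.77 to 2.06) below MHC and 1.40-fold (1.28 to 1.52) below NEG. Neither gene reached 2-fold. Fos and Egr1, which are commonly induced together, therefore lay on opposite sides, with Fos highest and Egr1 lowest in GFP.

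Ratios of genes within 1 library do not depend on how libraries are scaled. The pairs that follow were chosen after their values were seen. Per exonic kb, the level of Fos was 2.54 times that of Egr1 in GFP (counting interval 2.51 to 2.57), 1.04 times in MHC (1.03 to 1.05) and 1.03 times in NEG (1.02 to 1.04). The Fos to Egr1 ratio was thus 2.44-fold higher in GFP than in MHC, and 1.01-fold higher in MHC than in NEG. The level of Fosl2 was 1.08 times that of Fosb in GFP, 0.241 times in MHC and 0.492 times in NEG. This ratio thus differed 4.46-fold between GFP and MHC. Per kb of the whole gene span, introns included, Fosb was above Fosl2 in GFP, at 1043 and 558. Ratios within 1 library thus depend on the length used, which the counting intervals leave out. The fold by which a ratio differs between libraries does not depend on it. The Junb to Jun ratio was 3.53 in NEG, 5.03 in MHC and 5.20 in GFP.

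Levels of different genes were compared per kb of exons within the counted span, with the exons of all transcripts pooled. Fos had the highest value in each library, at 16379 per exonic kb in NEG, 18476 in MHC and 25370 in GFP. Junb followed in GFP and MHC, at 19027 and 18373, and Egr1 in NEG, at 15924, with Junb after it at 15028. In MHC, Fos, Junb and Egr1 (17720) lay within 1.04-fold of each other, and in NEG Fos was 1.03 times Egr1. There is no replicate spread by which to order these genes in any library. Jund, Jun and Atf3 came next in each library, from 5582 per exonic kb for Jund in NEG to 2480 for Atf3 in GFP. Below them were Fosb, Fosl2, Egr2 and, at 27.1, 141 and 34.6 per exonic kb in NEG, MHC and GFP, Fosl1. Fosl2 stood just above Fosb in GFP, at 1325 and 1230 per exonic kb, and below it elsewhere. Among 21877 protein-coding genes with an exonic length, Fos ranked 117 in NEG, 110 in MHC and 50 in GFP, and Egr1 121, 118 and 167. Per kb of the whole span, introns included, Junb came first in each library. Egr1 then stood above Fos in NEG (13833 and 11384) and in MHC (15393 and 12841), but not in GFP. Fosb then stood above Fosl2 in GFP too. The order of these genes thus depends on the length used.

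Summed per exonic kb, the 4 Fos family genes reached 18143 in NEG, 21760 in MHC and 27960 in GFP, and the 3 Jun family genes 24863, 25945 and 28080. The Fos sum divided by the Jun sum was 0.730 in NEG, 0.839 in MHC and 0.996 in GFP. Fos made up 90.3% of the family sum in NEG, 84.9% in MHC and 90.7% in GFP. Fosb made up 6.42%, 11.6% and 4.40%, and Fosl2 3.16%, 2.81% and 4.74%. Junb was the main Jun gene throughout, with 60.4% of the sum in NEG, 70.8% in MHC and 67.8% in GFP.

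**Figure D3:**
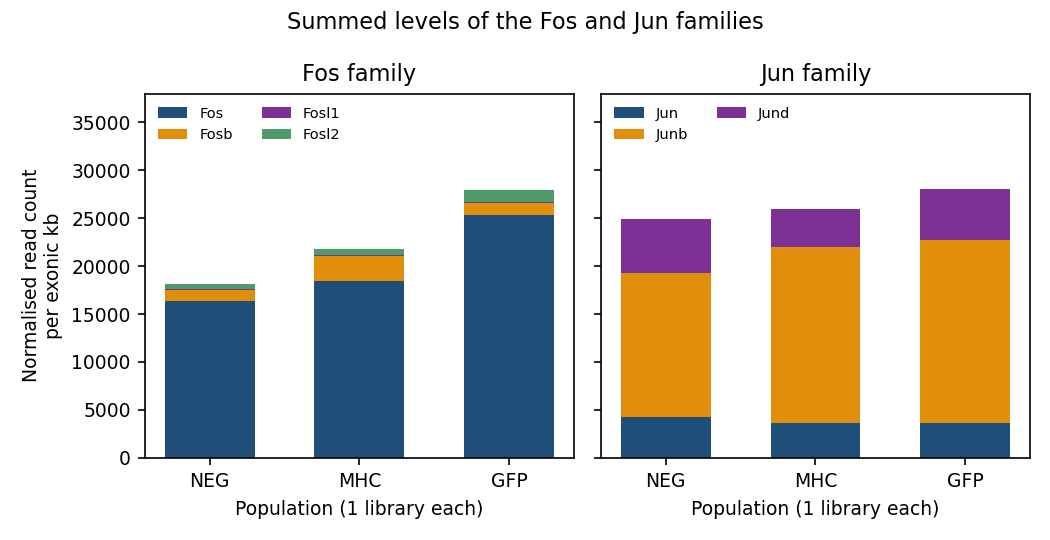
Summed normalised read count per exonic kb of the Fos family (left) and the Jun family (right) in each population, 1 library each, with colours for the genes. Fos fills most of the left bars, which are lowest in NEG and highest in GFP, and Junb most of the right bars, which differ less.

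Over the 10 members the median log2 ratio was −0.10 in GFP against MHC, 0.01 in GFP against NEG and 0.16 in MHC against NEG. The first turned to 0.063 with libraries scaled to their totals and the second to −0.02 with the upper quartile; both thus changed sign with the scaling. Over all measured genes the median was −0.00, 0.01 and −0.01. The median size of the log2 ratio, whatever its direction, was 0.64 for the members and 0.62 for all genes in GFP against MHC. It was 0.34 and 0.53 in GFP against NEG, and 0.26 and 0.32 in MHC against NEG.

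Other immediate early genes went both ways between GFP and the other populations, with log2 ratios of −3.63 to 1.66 against MHC, where the members had −2.02 to 1.12. For this list and those below, 15.6% of all genes tested were higher and 16.4% lower in GFP than in MHC. The shares were 14.1% and 15.0% in GFP against NEG, and 5.35% and 5.21% in MHC against NEG. Of 30 measured genes, 7 were higher and 10 lower in GFP than in MHC, 10 higher and 7 lower in GFP than in NEG, and 4 higher and 1 lower in MHC than in NEG. Against NEG these counts were 10 higher and 10 lower in GFP with libraries scaled to the upper quartile, and 12 and 6 with library totals. The list median was 0.07, 0.16 and 0.41. Without the genes that share reads it was −0.21, −0.0056 and 0.42 over 27 genes, so the sign turned in both comparisons of GFP. Ptgs2, which encodes the inducible cyclooxygenase, had a value of 1321 in NEG, 2430 in MHC and 7701 in GFP, 3.17-fold (3.03 to 3.32) higher in GFP than in MHC. Btg2, an antiproliferative gene, was at 22173, 35179 and 82032. Sgk1, a kinase gene induced by serum and glucocorticoids, was at 5288, 9096 and 731, 12.4-fold (11.6 to 13.4) lower in GFP than in MHC. Nr4a3, an orphan nuclear receptor gene, was at 397, 1787 and 1356, and Klf2, a flow-responsive factor of endothelium, at 5151, 2214 and 1380. Cyr61, a matrix protein gene, was at 76179, 65089 and 67073, within 2-fold throughout. Egr3, another Egr gene, which was chosen with its levels known, had a value of 180 in NEG, 596 in MHC and 67.6 in GFP, lowest in GFP like Egr1 and Egr2. Egr4 was under the level counted as measured and went the other way, with 7 reads in NEG, 3 in MHC and 14 in GFP.

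Among 15 AP-1 partners and related leucine zipper genes, 2 were higher and 5 lower in GFP than in MHC, and the same numbers held against NEG. In MHC against NEG, 0 were higher and 1 was lower. Jdp2, a Jun dimerisation protein that represses AP-1, had a value of 1969 in NEG, 1463 in MHC and 5777 in GFP, 3.95-fold (3.73 to 4.18) higher in GFP than in MHC. Maf, uncertain because another gene overlaps it, was at 10604, 12914 and 36799. Atf4, the effector of the integrated stress response, was at 13784, 15816 and 5845, 2.71-fold (2.63 to 2.79) lower in GFP than in MHC. Batf3, known from dendritic cells, had 2 reads in GFP, a value of 1.83, against 31.4 in MHC and 102 in NEG.

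The kinases and factors upstream of the members varied little. Of 22 genes, 0 were higher and 1 lower in GFP than in MHC, 0 higher and 1 lower in GFP than in NEG, and 0 differed by 2-fold between MHC and NEG. Between MHC and NEG, 89.0% of all measured genes lay within 2-fold. Rps6ka5, which encodes the histone kinase MSK1, was the lower gene against MHC, at 643 in NEG, 861 in MHC and 339 in GFP. Elk3, an Ets partner of serum response factor, was the lower gene against NEG, at 2001, 1444 and 904. Mapk3, a kinase gene of the growth factor cascade, was at 4402, 4604 and 6886, within 2-fold. Srf, the gene of serum response factor, and Mapk7 are uncertain, as overlapping genes had means 1148% and 810% of theirs. Elk4 and Mkl1 are uncertain too. The other 18 genes had median log2 ratios of 0.16 in GFP against MHC, 0.10 in GFP against NEG and −0.03 in MHC against NEG.

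Feedback inhibitors, most of them of the same cascade, were mostly higher in GFP. Of 11 genes, 6 were higher and 1 lower than in MHC (median log2 ratio 1.08), and 6 higher and 1 lower than in NEG (1.10). In MHC against NEG, 1 was higher and 0 lower (0.22). The counts were the same with both other scalings. Dusp4, a phosphatase of MAP kinases, had a value of 145 in NEG, 323 in MHC and 2172 in GFP, 6.72-fold (5.98 to 7.58) higher in GFP than in MHC. Dusp5 was at 1077, 1508 and 5703, and Spred1, an inhibitor of Ras signalling, at 2774, 2810 and 5961. Dusp10, which acts on JNK and p38, went the other way, at 278, 439 and 119. Nab1 and Nab2 are in the list too but are outside the growth factor cascade. They were within 2-fold in each comparison, and Nab2 is uncertain because another gene overlaps it. The epicardial and mesothelial, epithelial and blood cell markers given above were highest in the same library, and their part in these levels was not tested.

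Genes known as AP-1 targets went both ways. Of 16 measured genes out of 18, 4 were higher and 9 lower in GFP than in MHC (median log2 ratio −1.32). Against NEG, 4 were higher and 7 lower in GFP (−0.75), and 3 higher and 0 lower in MHC (0.60). Without the genes that share reads the medians were −1.36, −1.24 and 0.58 over 13 genes. With the upper quartile, 10 were lower in GFP than in MHC and 4 higher in MHC than in NEG. Plau, the urokinase gene, had a value of 799 in NEG, 768 in MHC and 14214 in GFP, 18.5-fold (17.2 to 19.9) higher in GFP than in MHC. The collagenase gene Mmp13 was at 2776, 11652 and 24.7, and the matrix phosphoprotein gene Spp1 at 9425, 71092 and 1133. Mmp13 and Spp1 are also genes of bone and cartilage cells, and the summed fibroblast and matrix markers were lower in GFP as well, although 3 of those 8 were highest there. Those marker sums were 5268291 in NEG and 5248847 in MHC, while Mmp13 and Spp1 were higher in MHC than in NEG. No list of bone and cartilage markers was compared. The part of any of these cell types in the levels was not tested. Hmox1, the haem oxygenase gene, was at 12598, 9784 and 16341, within 2-fold. The genes of this list have regulators other than AP-1 too.

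Heat shock genes, which dissociation also induces, were compared in the same libraries. Of 13, 1 was higher and 2 lower in GFP than in MHC, 4 higher and 0 lower in GFP than in NEG, and 2 higher and 0 lower in MHC than in NEG. With the upper quartile, 4 were higher and 1 lower in GFP than in NEG, and with library totals 6 and 0. The list median was 0.06, 0.66 and 0.41. Hspa1b, an inducible Hsp70 gene, was at 1467 in NEG, 3533 in MHC and 4419 in GFP, and shares much of its sequence with Hspa1a, so its reads are uncertain. Hsp90aa1 was at 8515, 9262 and 23147, and the co-chaperone gene Dnajb1 at 7504, 13903 and 3759. Hspa8 was at 37770, 44200 and 67536, and Hspa5, the chaperone of the endoplasmic reticulum, at 46871, 64478 and 49078.

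**Figure D4:**
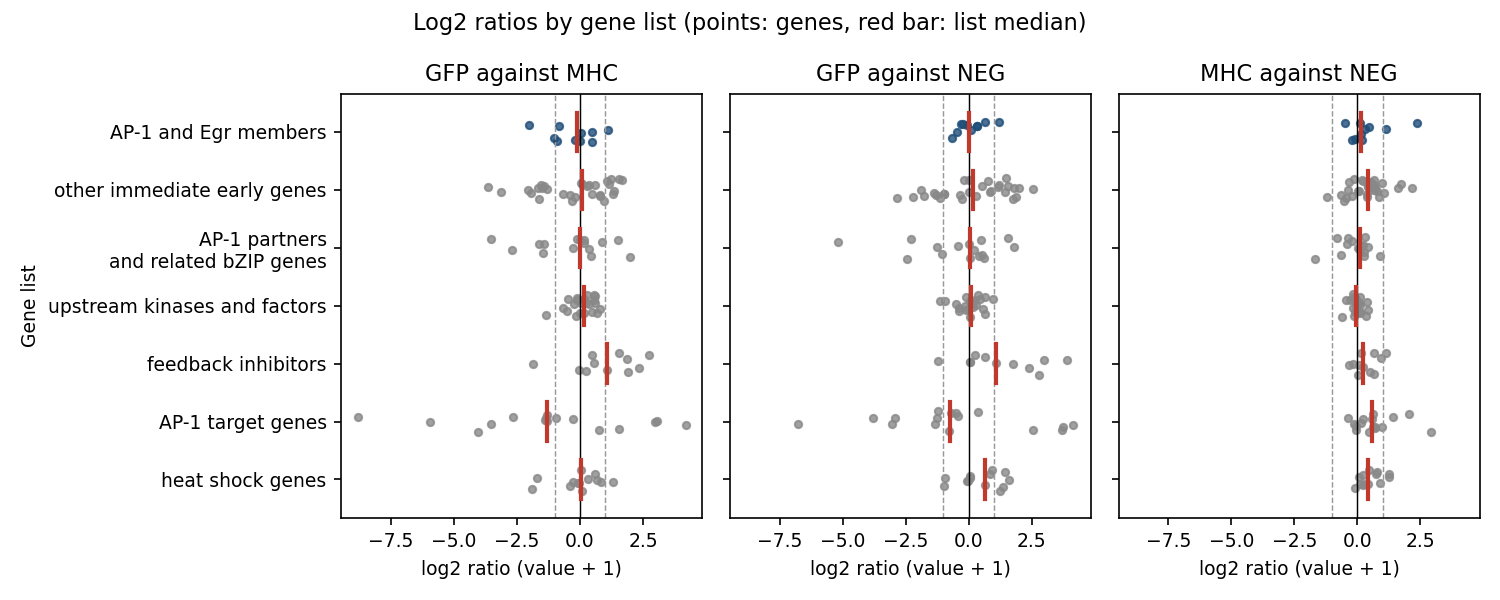
Log2 ratios on the log2(value + 1) scale of the members (blue) and of the measured genes of 6 related lists (grey), with the median of each list as a red bar and dashed lines at 2-fold. The feedback inhibitors have medians right of 1 in both comparisons of GFP, and the upstream genes lie almost all within 2-fold.

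The genes most like a member over the 3 libraries were found by the Euclidean distance of centred log2(value + 1) values among 12722 protein-coding genes with a mean of at least 100. For Egr1 these were Eif1, Zfp61 and Mphosph10, at distances of 0.0048 to 0.011, and 166 genes lay within 0.1. For Fos they were Ubl5, Iars2 and G3bp2, all uncertain because of overlapping genes, at 0.0027 to 0.0081, with 213 genes within 0.1. For Jun they were Gm12666, Fbxw2 and Extl1, at 0.0043 to 0.010, with 317 within 0.1. With 3 points per gene, such closeness is shared by many genes.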

How the data were processed

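One library per population was sequenced as single reads of 50 bases, per the labels' protocols. The submitters' processing notes name mm10 and the tools DESeq2 1.2.10, bedtools 2.17.0, STAR 2.3.0e and FastQC 0.11.2, without their roles. The table deposited by the authors holds a signal value per gene, a read count divided by a size factor. Values were whole multiples of 1.13 in NEG, 1.01 in MHC and 0.914 in GFP, and 100% of them came out whole within 0.01 of a read. With no residual degrees of freedom no count model was fitted, so 0 genes are called by one.

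Strand and exonic length came from GENCODE M21, and promoters from RefSeq. A gene is called uncertain where an overlapping gene has at least 25% of its mean. Of 2 symbols with 2 identifiers, the one with the higher mean was used. Measured means a mean of at least 10. From each related list, the 2 highest genes and the extreme called ratios of each comparison are named, except 1 gene that is not reported here. The members and lists were chosen with earlier results of these data known. Computations used Python 3.11.15 and were tested on simulated reads.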

Additional observations from a re-analysis of the deposited data

How the results depend on the processing

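No paired analysis was possible because each population has 1 library, and for the same reason none could be left out. Scaling to library totals moved the median log2 ratio of all measured genes in GFP against MHC from −0.00 to 0.17 and in GFP against NEG from 0.01 to 0.17, so changes read against that shift. The member medians then became 0.063 in GFP against MHC, where the sign turned from −0.10, and 0.18 in GFP against NEG, and 1 member was lower in GFP than in MHC in place of 2. Scaling to the upper quartile gave member medians of −0.16 in GFP against MHC and 0.19 in MHC against NEG. It also turned the sign of the small GFP against MHC ratios of Jun (−0.05) and Junb (−0.01). Scaling to totals turned that of Jund in GFP against NEG (0.12). It brought the heat shock genes higher in GFP than in NEG from 4 to 6.

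At a fold of 1.5, 4 members were lower in GFP than in MHC, and 2 were higher and 1 lower in GFP than in NEG. At a fold of 3, 0 were higher and 1 lower in GFP than in MHC, 0 were higher in GFP than in NEG, and 1 was higher in MHC than in NEG. The shares of all genes at folds of 1.5 and 3 were not computed, so these counts have no background beside them. Without Jun and Jund, which share reads, the medians were −0.52, 0.21 and 0.23 over 8 members. Pseudocounts of 0.1 and 10 left all 30 member ratios within their counting intervals and, like minimum values of 0 and 100, changed no count. Depth limits Fosl1 alone among the members, at 45 to 262 reads.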
